A study of Mus musculus with 111 samples.

Results

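Glucocorticoid-responsive genes were followed across the day in RNA-seq libraries of the mouse tuberomammillary nucleus (TMN), the posterior hypothalamic region that holds the brain's histamine neurons. The 9 genes were chosen by name, as genes known to follow the corticosterone peak near lights off: Fkbp5, Sgk1, Tsc22d3, Zbtb16, Nfkbia, Cdkn1a, Ddit4, Mt1 and Mt2. They are 9 of the 54087 gene rows of each count table, and all 9 have a row. In the study, adult C57BL/6 mice of both sexes were kept in alternating light and dark phases and received an adeno-associated virus (AAV) in the TMN, and tissue was taken at zeitgeber time (ZT, hours after lights on) 0, 4, 8, 12, 16 and 20. The viruses carried GFP alone (32 libraries), wild-type histone H3.3 (39 libraries) or H3.3 in which glutamine 5 is an alanine, Q5A (39 libraries), a residue that can no longer take up a monoamine such as histamine or serotonin.

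The GFP and H3.3 libraries together are the controls here (71 libraries), a pooling the authors also used. Every vector also expressed GFP, so all mice had surgery, an AAV and GFP, and the promoter that drives the transgene is not given in the sources used here. Each library came from 1 mouse. The labels describe punches and the study's methods a dissection guided by GFP light, in which transduced and untransduced cells of several types were measured together. Fewer cells of a type and less RNA per cell cannot be told apart. The labels divide the libraries into 3 cohorts of 78, 24 and 8 libraries. Cohort 3 held no GFP library.

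Counts in gene rows summed to between 673306 and 3375352 per library (median 1474422) and made up 3.49% to 5.63% of the uniquely placed reads. The reads had been counted only on the gene's own strand, whereas the first read of the library kit runs against the transcript. Rows of the 9 genes held few reads, and the part of the strand setting in this was not tested. The median over 110 libraries was 4 reads for Sgk1 and 34.5 for Mt1. A single count of 4 reads has an exact 95% Poisson interval of 1.09 to 10.2. Exons of Mt2 share 432 of their 588 bases, and those of Cdkn1a 273 of 3553, with a gene annotated on the other strand. Reads of these genes (Gm45774 and AC167363.2, not analysed here) could have entered the rows of Mt2 and Cdkn1a. No gene on the other strand overlaps exons of the other 7 members in the GENCODE annotation of GRCm38. Of the marker genes of the TMN's histamine neurons, Slc18a2 had a median normalised count (reads divided by the library's size factor) of 85.7, whereas Hdc, which makes histamine, had a median of 3.96 and was at 0 in 11 libraries. Hrh3 had a median of 15.7, and Wif1 had a median of 0 and was at 0 in 76 libraries.

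Glucocorticoids reach the brain from the adrenal gland and bind the glucocorticoid and mineralocorticoid receptors, which move to the nucleus and act on genes near their binding sites. In mice, which are active at night, corticosterone in blood peaks around lights off and is lowest after lights on. The genes followed here are often used as a readout of that hormone. Fkbp5 encodes a co-chaperone that lowers the receptor's affinity for the hormone, a negative feedback. Tsc22d3 encodes GILZ, and Nfkbia encodes IkappaBalpha, both brakes on inflammatory transcription. Sgk1 encodes a kinase that acts on ion channels and transporters, and Zbtb16 a zinc finger repressor also called PLZF. Cdkn1a encodes the cell cycle inhibitor p21, Ddit4 the mTORC1 inhibitor REDD1, and Mt1 and Mt2 are metallothioneins, small cysteine-rich proteins that bind zinc and copper and are also induced by metals through the factor MTF1.

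The stretches upstream of the annotated starts of the 4 genes that carried the results below are shown because they hold, or lack, letters known from such regulation. They are from RefSeq windows of GRCm38.p6 reaching 250 bases before each start, on the gene's strand, with bases of annotated exons left off. Sgk1 is at chr10:21993640-21993889 on the plus strand, Tsc22d3 at chrX:140600660-140600772 on the minus strand, Mt1 at chr8:94178839-94179081 and Mt2 at chr8:94172368-94172617, both on the plus strand. For genes with several annotated starts the window printed was picked for its matches. Sgk1 has 6 windows, 3 of them without the glucocorticoid motifs, and Tsc22d3 has 3 windows, 2 of them without. Capitals mark matches of the motifs named in the next paragraph.
Sgk1: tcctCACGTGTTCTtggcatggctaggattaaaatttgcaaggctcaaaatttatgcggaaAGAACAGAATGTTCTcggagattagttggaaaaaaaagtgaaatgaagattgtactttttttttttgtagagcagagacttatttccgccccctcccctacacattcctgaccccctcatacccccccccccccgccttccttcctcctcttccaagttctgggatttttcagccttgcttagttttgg
Tsc22d3: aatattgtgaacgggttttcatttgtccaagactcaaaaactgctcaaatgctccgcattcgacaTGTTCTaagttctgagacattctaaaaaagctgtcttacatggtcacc
Mt1: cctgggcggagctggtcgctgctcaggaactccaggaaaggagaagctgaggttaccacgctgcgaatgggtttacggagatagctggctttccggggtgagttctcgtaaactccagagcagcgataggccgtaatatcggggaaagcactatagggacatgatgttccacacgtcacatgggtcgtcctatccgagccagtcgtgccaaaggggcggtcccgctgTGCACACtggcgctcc
Mt2: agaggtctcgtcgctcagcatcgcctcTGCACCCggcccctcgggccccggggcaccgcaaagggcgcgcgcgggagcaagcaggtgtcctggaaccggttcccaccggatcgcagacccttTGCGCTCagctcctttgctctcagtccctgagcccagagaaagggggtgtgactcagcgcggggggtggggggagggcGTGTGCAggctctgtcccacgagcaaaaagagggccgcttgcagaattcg

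The motifs were searched on both strands of all 32851 windows of 250 bases before and 50 after a start. The full glucocorticoid response palindrome, AGAACA and TGTTCT set 3 bases apart, was found in 3 windows (0.00913%), one of them that of Sgk1, at chr10:21993701-21993715 and 189 bases before the start. The shorter TGTTCT was found in 19.0% of windows, among them 3 windows of Sgk1 and 1 window of Tsc22d3, where it lies 185 bases before the start. The E-box CACGTG, the site of the clock factors CLOCK and BMAL1, was found in 7.15% of windows, among them that of Sgk1 (where it shares bases with a TGTTCT match) and one of Fkbp5. For metal response, TGCACNC was found in 12.6% and TGCGCNC in 15.4% of windows, and at least 3 matches of either in 1.97%. Mt1 had 3 such matches and Mt2 had 4, some of them past the start and not shown. Windows were available for 8 of the 9 members, all but Zbtb16. A match says only that the letters are present.

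The metallothioneins had the highest levels of the 9 genes per length. Over 110 libraries the mean normalised count per kilobase of annotated exon was 31.6 for Mt1 (ENSMUSG00000031765) and 24.9 for Mt2 (ENSMUSG00000031762), neighbours on chromosome 8 at chr8:94179082-94180327 and chr8:94172664-94173568. Ddit4 (4.48), Nfkbia (3.54), Tsc22d3 (2.42), Sgk1 (1.15), Fkbp5 (0.922), Zbtb16 (0.675) and Cdkn1a (0.587) followed on this per-length scale, in that order. These values compare rows as counted, on 1 strand. Only Cdkn1a, at 0 reads in 26 of 110 libraries, was below the filter for the count test, so 8 of the 9 members were tested there, among 13891 genes.

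In the controls, 3 of the 8 tested members rose from lights on to lights off: Sgk1, Tsc22d3 and Mt2. The comparison, called the lights-off difference below, is the mean of ZT12 and ZT16 minus the mean of ZT0 and ZT4 on the log2 scale, averaged over GFP and H3.3, from an edgeR quasi-likelihood fit of all 18 groups of virus and ZT. It called 349 of 13891 genes (2.51%) at an adjusted p under 0.05, 135 of them higher (0.972%) and 214 lower (1.54%). None of the members was lower. All 8 differences were above 0, as were those of 53.9% of all genes tested, and the median was 0.58 for the members and 0.03 for all genes. In H3.3 alone the differences of Nfkbia and Ddit4 were below 0 (values below).

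Sgk1 (ENSMUSG00000019970, chr10:21882184-21999903) had normalised counts of 0 to 9.81 in the 20 control libraries at ZT0 and ZT4, with a median of 2.91. In the 27 control libraries at ZT12 and ZT16 they ran from 0.905 to 19.7, with a median of 6.49. The groups overlapped, and 22 of the 27 lay above the lights-on median. The lights-off difference was 1.09 ± 0.29 (log2, SE, edgeR adjusted p = 0.0293). By ZT the mean was highest at ZT12, 8.95 ± 5.44 (SD, n = 13), and lowest at ZT8, 3.40 ± 2.56 (SD, n = 13), so the low level lasted through the light phase.

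Tsc22d3 (ENSMUSG00000031431, chrX:140539528-140600659) had more lights-off libraries above every lights-on library than any other member in the controls. Its normalised counts were 1.1 to 12.8 in the lights-on controls (median 6.49) and 2.47 to 31.2 in the lights-off controls (median 13.7). Of the 27 lights-off libraries, 15 lay above every lights-on library. The difference was 1.06 ± 0.23 (log2, SE, edgeR adjusted p = 0.00925). Its means stayed near one another from ZT12 to ZT20, at 14.0 ± 7.89 (SD, n = 13), 13.4 ± 5.29 (SD, n = 14) and 13.8 ± 8.0 (SD, n = 11), and the lowest was 5.22 ± 2.65 (SD, n = 11) at ZT4.

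**Figure D1:**
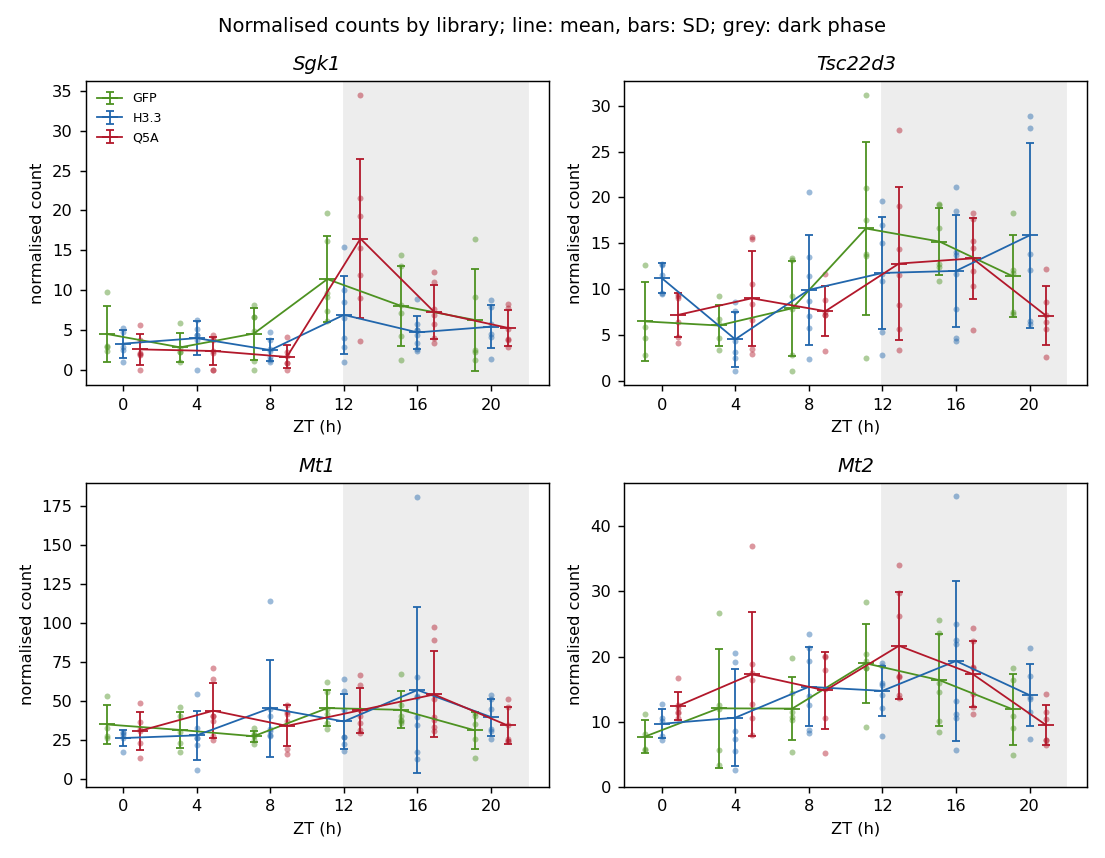
Normalised counts of Sgk1, Tsc22d3, Mt1 and Mt2 (vertical axes) against ZT in hours (horizontal axes), with 1 point per library, lines through the means of the 3 viruses, bars of 1 SD and grey for the dark phase. Sgk1 of the Q5A libraries went from a mean of 1.59 at ZT8 to 16.5 at ZT12, and 1 H3.3 library reached 181 for Mt1 at ZT16.

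Mt2 had normalised counts of 2.59 to 26.7 in the lights-on controls (median 8.38) and of 5.58 to 44.6 in the lights-off controls (median 15.98), where 24 of 27 libraries exceeded the lights-on median. It was higher by 0.81 ± 0.19 (log2, SE, edgeR adjusted p = 0.0187). Mt1, with 6.15 to 54.8 (median 28.2) against 13.1 to 181 (median 40.7), had a difference of 0.59 ± 0.19 that missed the threshold (edgeR adjusted p = 0.0586). It passed with DESeq2 (adjusted p = 0.0385) and without filtering low counts (edgeR adjusted p = 0.00369), so that whether both metallothioneins or Mt2 alone were called turned on the setting.

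The other 4 tested members did not pass in the controls. Zbtb16 (ENSMUSG00000066687, chr9:48654297-48836222) had medians of 2.81 at lights on and 4.24 at lights off and a difference of 0.57 ± 0.31 (edgeR adjusted p = 0.271). Fkbp5 (ENSMUSG00000024222, chr17:28399094-28517527), the gene of the receptor's feedback, had medians of 7.11 and 9.46 and a difference of 0.27 ± 0.23 (edgeR adjusted p = 0.492). Nfkbia (ENSMUSG00000021025, chr12:55489410-55492647) had medians of 5.47 and 6.33 and a difference of 0.23 ± 0.24 (edgeR adjusted p = 0.588). Both had overlapping ranges at the 2 phases. Ddit4 (ENSMUSG00000020108, chr10:59949669-59951834) had medians of 6.79 and 7.79 and a difference of 0.19 ± 0.21 (edgeR adjusted p = 0.614). Cdkn1a (ENSMUSG00000023067, chr17:29090976-29100727), which was not tested here, had medians of 0.960 and 2.23, with 0 in some libraries of both times.

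The 3 calls did not hold in every setting. With ZT12 minus ZT0 alone none of them was called, and Tsc22d3 had 0.77 ± 0.33 (edgeR adjusted p = 0.196). Tsc22d3 also missed the threshold without the cohort 1 libraries of replicate number 2 (edgeR adjusted p = 0.0602) or number 4 (edgeR adjusted p = 0.0656). In cohort 2 the control medians of normalised counts at lights on (2 libraries) and lights off (7) were 2.65 and 8.18 for Sgk1, 8.55 and 12.7 for Tsc22d3 and 5.23 and 21.9 for Mt2, and cohort 3 had 1 control library at lights on. With cohort 1 alone only Tsc22d3 was called, and the differences were 0.85 ± 0.35 for Sgk1 (edgeR adjusted p = 0.198) and 0.41 ± 0.21 for Mt2 (edgeR adjusted p = 0.307). When single control libraries were left out in turn, Tsc22d3 and Mt2 were called in 47 of 47 fits and Sgk1 in 44, the exceptions being without GFP ZT0 cohort 1 replicate 4 (1.04, edgeR adjusted p = 0.0678), H3.3 ZT0 cohort 2 replicate 1 (1.02, edgeR adjusted p = 0.0657) and GFP ZT12 cohort 2 replicate 1 (1.03, edgeR adjusted p = 0.0552).

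By group means, 8 of the 9 members peaked at ZT12 or ZT16 in the controls, including all 8 tested, against 30.5% of the 13891 genes. Cdkn1a was the exception, with its highest mean at ZT20. In H3.3 alone the highest mean was at ZT0 for Fkbp5 and at ZT20 for Tsc22d3 and Cdkn1a. The members were chosen as genes that peak near lights off. Their share beside that of all genes, here and in Q5A below, is therefore a description and no test. Sgk1, Tsc22d3, Fkbp5, Nfkbia and Ddit4 had their highest control mean at ZT12, and Zbtb16, Mt1 and Mt2 at ZT16. The ratio of the highest to the lowest mean was 1.44 for Ddit4, 1.48 for Nfkbia and 1.64 for Fkbp5, and 2.68 for Tsc22d3. One day was sampled at 4 h steps, so a peak time is known only to within such a step.

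**Figure D2:**
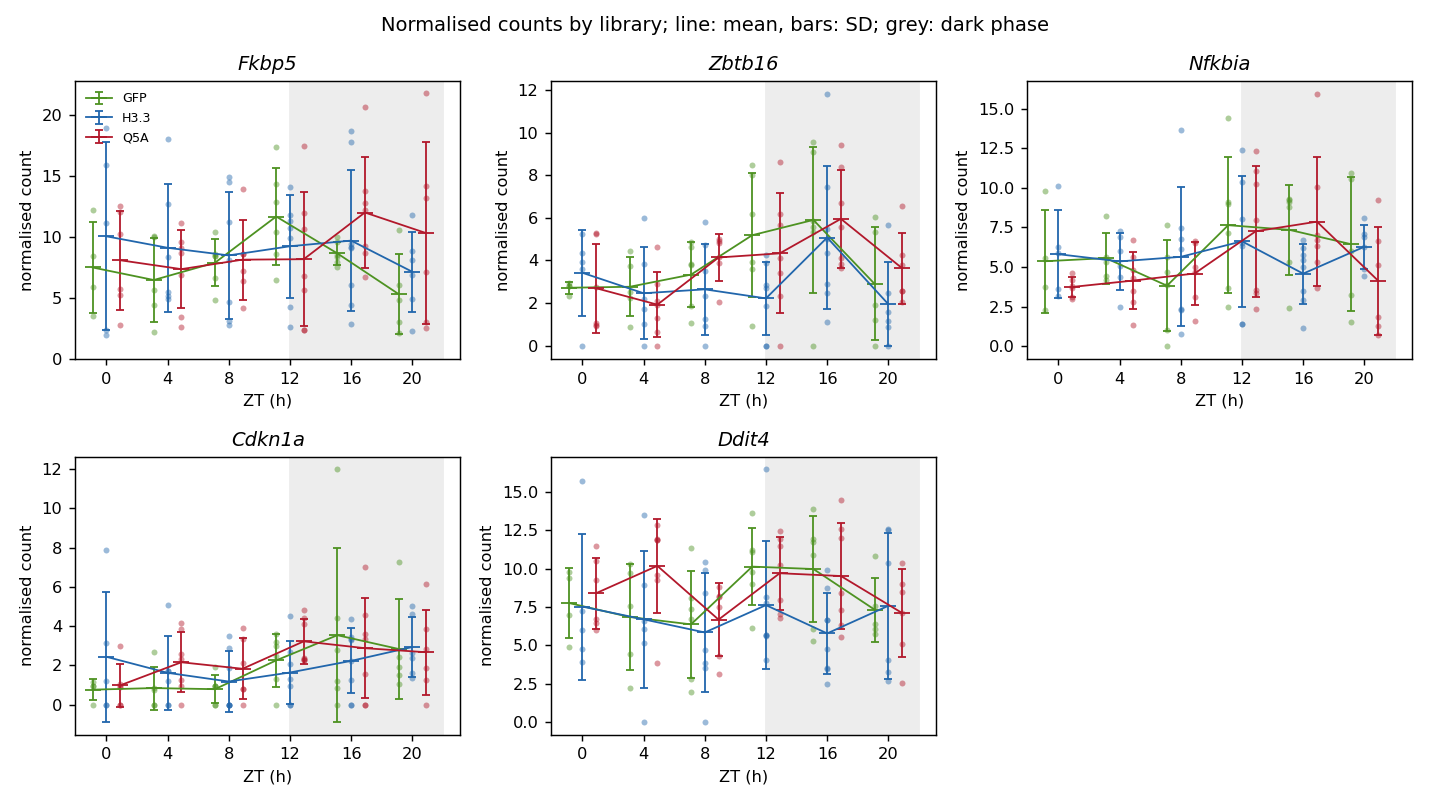
Normalised counts of Fkbp5, Zbtb16, Nfkbia, Cdkn1a and Ddit4 (vertical axes) against ZT in hours (horizontal axes), with 1 point per library, lines through the means of the 3 viruses, bars of 1 SD and grey for the dark phase. Libraries of one ZT spread widely, and the highest control mean of Zbtb16 is 5.43 at ZT16 against a lowest of 2.39 at ZT20.

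Rhythm over all 6 ZT was tested with JTK_CYCLE, a rank test against cosine-like templates. In the controls it called 2775 of 18066 genes (15.4%) and 5 of the 9 members. Tsc22d3 had a JTK_CYCLE adjusted p of 0.000428 with its peak at ZT16, Mt2 of 0.00345 with its peak at ZT14, and Sgk1 of 0.0259 with its peak at ZT14. Cdkn1a (JTK_CYCLE adjusted p = 0.0386, peak at ZT18) and Mt1 (JTK_CYCLE adjusted p = 0.0439, peak at ZT16) were also called, but in 48 and 39 of the 71 repeats that each left out 1 library. In those repeats Tsc22d3 and Mt2 were called in 71, and Sgk1 in 69, missing only without GFP ZT4 cohort 1 replicate 1 (adjusted p = 0.0587) and H3.3 ZT4 cohort 1 replicate 3 (adjusted p = 0.0621). The best template had a period of 20 h for Sgk1 and of 24 h for Tsc22d3, Mt2, Cdkn1a and Mt1. Zbtb16 (adjusted p = 0.295) and Fkbp5 (0.344) were not called by JTK_CYCLE, nor were Nfkbia and Ddit4, both with an adjusted p of 1. These p-values were adjusted for the templates tried on a gene, not for how many genes were tried. Adjusted over all genes as well, only Tsc22d3 was called.

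The control viruses gave unequal counts of calls. In GFP, 2294 genes (12.7%) were called by JTK_CYCLE, among them Tsc22d3 (adjusted p = 0.00245, period 24 h) and Sgk1 (adjusted p = 0.0380, period 20 h). In H3.3, 1281 genes (7.09%) were called and none of the 9 members, the nearest being Tsc22d3 (JTK_CYCLE adjusted p = 0.205). The lights-off difference, computed per virus after the data were seen, was 1.49 ± 0.42 in GFP and 0.69 ± 0.41 in H3.3 for Sgk1, with edgeR adjusted p-values of 0.0456 and 0.816. For Tsc22d3 it was 1.39 ± 0.34 and 0.74 ± 0.31 (edgeR adjusted p = 0.0302 and 0.729). In GFP 252 genes (1.81%) passed, those 2 members among them, and in H3.3 2 genes (0.0144%) and no member. The GFP calls were fragile, since without 1 of the 21 GFP libraries at a time Sgk1 stayed called in 7 fits (highest edgeR adjusted p = 0.143) and Tsc22d3 in 11 (highest edgeR adjusted p = 0.116). Mt1 had 0.44 ± 0.27 in GFP and 0.75 ± 0.25 in H3.3, and Mt2 0.86 ± 0.28 and 0.76 ± 0.26. In GFP and H3.3, Fkbp5 had 0.54 ± 0.34 and 0.004 ± 0.30, and Zbtb16 1.03 ± 0.44 and 0.12 ± 0.44. Nfkbia had 0.46 ± 0.34 and -0.008 ± 0.33, and Ddit4 0.47 ± 0.30 and -0.09 ± 0.30. The difference between the viruses was itself not called for any gene (edgeR), and for Sgk1 it was -0.80 ± 0.60 (edgeR adjusted p = 0.623), so a different size in H3.3 and GFP was not shown. At an unadjusted p under 0.05 that test had 1444 genes, none of them a member.

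Sgk1 was the only gene of all 13891 (0.0072%) called for a lights-off difference in the Q5A libraries over all cohorts, whereas cohort 1 alone gave 463 genes, Sgk1 among them. At ZT0 its normalised counts in the 6 Q5A libraries were 0 to 5.57 with a median of 2.01, and at ZT12 the 7 libraries had 3.54, 9.05, 11.9, 15.3, 19.3, 21.5 and 34.5. Taking both times of each phase, the 13 lights-on libraries ran from 0 to 5.57 (median 2.1) and the 14 lights-off libraries from 3.35 to 34.5 (median 10.02). All 14 lay above the lights-on median and 11 above every lights-on library. The difference was 2.098 ± 0.374 (log2, SE, edgeR adjusted p = 0.00232). The highest mean, 16.5 ± 10.04 (SD, n = 7) at ZT12, was 10.4 times the lowest, 1.59 ± 1.45 (SD, n = 6) at ZT8, and means of 7.26 at ZT16 and 5.24 at ZT20 followed.

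The highest Sgk1 library, Q5A ZT12 cohort 2 replicate 1 with 72 reads, had the third highest sums of neuron and of astrocyte markers among the 110 libraries, and the lowest sum of microglial markers. Its sum of endothelial markers ranked 2, and its gene rows held 5.39% of its uniquely placed reads. Of the microglial markers, Csf1r (median 254 over 110 libraries) held most of the sum (median 278.5). Without any single one of the 27 Q5A libraries in turn the difference stayed between 1.95 and 2.29 and was called (highest edgeR adjusted p = 0.0154). In cohort 1 alone Sgk1 was called (edgeR adjusted p = 0.000918), and in cohort 2 the Q5A medians were 3.81 in 4 lights-on and 7.55 in 3 lights-off libraries. The call was lost when all cohort 1 libraries of replicate number 1 (1.75 ± 0.40, edgeR adjusted p = 0.455) or number 4 (1.957 ± 0.406, edgeR adjusted p = 0.0851) were left out together.

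No other member passed in Q5A, where 752 genes had an unadjusted p under 0.05. Zbtb16 had normalised counts of 0 to 5.27 (median 1.93) at lights on and of 0 to 9.42 (median 4.84) at lights off, with 13 of 14 lights-off libraries above the lights-on median. Its difference was 1.25 ± 0.39 (edgeR adjusted p = 0.784). Nfkbia went from 1.33 to 6.74 (median 3.83) to 2.39 to 15.9 (median 6.86), a difference of 0.97 ± 0.31 (edgeR adjusted p = 0.784). For Tsc22d3, whose medians were 8.36 and 13.2, the difference was 0.66 ± 0.28 (edgeR adjusted p = 0.875). Mt1 had 0.41 ± 0.23, Mt2 0.38 ± 0.23, Fkbp5 0.37 ± 0.29 and Ddit4 0.06 ± 0.26. All 8 were above 0, beside 52.8% of all genes, and the group mean was highest at ZT12 or ZT16 for 8 of the 9 members, all but Ddit4, beside 32.7% of the genes tested.

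**Figure D3:**
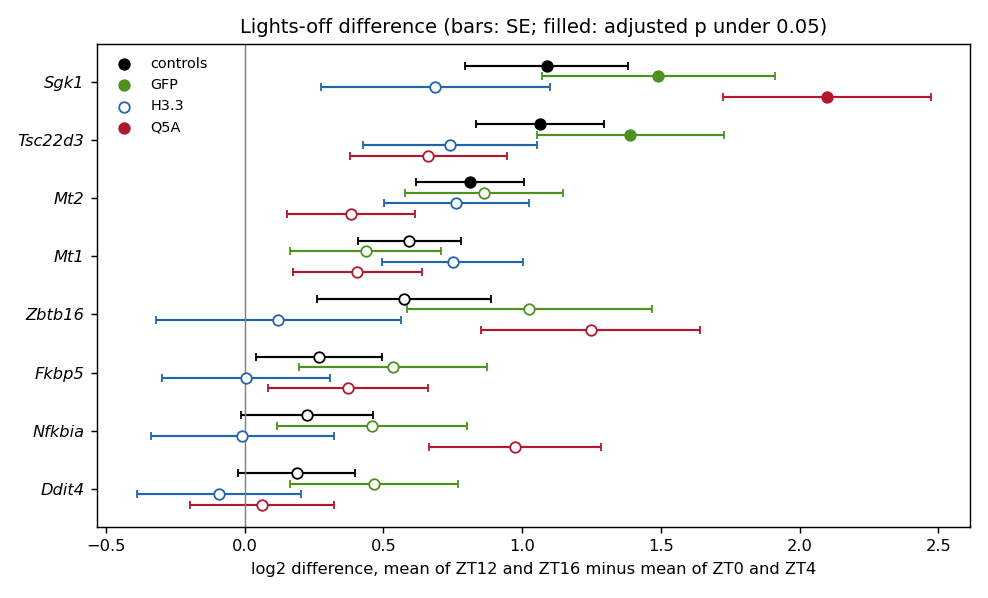
Lights-off difference (log2, mean of ZT12 and ZT16 minus mean of ZT0 and ZT4, horizontal axis) of the 8 tested members (vertical axis) in the controls, GFP, H3.3 and Q5A, from edgeR, with bars of 1 SE and filled points at an adjusted p under 0.05. Sgk1 in Q5A has the highest point, 2.098, and filled points are Sgk1 in controls, GFP and Q5A, Tsc22d3 in controls and GFP, and Mt2 in controls.

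Set against the controls, the difference in Q5A was not called for any gene (edgeR, 0 of 13891), while 1053 genes had an unadjusted p under 0.05 and DESeq2 called 4 genes, none of them a member. For Sgk1 the Q5A difference exceeded that of the controls by 1.01 ± 0.48 (edgeR adjusted p = 0.626), with a 95% interval of 0.06 to 1.96. It did so by 0.61 ± 0.58 against GFP and by 1.41 ± 0.57 against H3.3 (edgeR adjusted p = 0.775 and 0.632). The values for Nfkbia and Zbtb16 were 0.75 (95% interval -0.02 to 1.52) and 0.67 (-0.32 to 1.67). For Tsc22d3 it was -0.40 (-1.12 to 0.31) and for Mt2 -0.43 (-1.02 to 0.16), so for these genes neither a smaller nor an equal difference in Q5A can be shown. Intervals for Mt1 (-0.77 to 0.39), Ddit4 (-0.78 to 0.53) and Fkbp5 (-0.62 to 0.82) included 0 as well.

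JTK_CYCLE called 822 of 18066 genes in Q5A (4.55%), among them Sgk1 (adjusted p = 0.000513, peak at ZT14), Zbtb16 (adjusted p = 0.0316, peak at ZT14) and Mt2 (adjusted p = 0.0401, peak at ZT10). The best template had a period of 24 h for Sgk1 and Zbtb16 and of 20 h for Mt2. Leaving out 1 of the 39 libraries at a time, Sgk1 was called in 39 repeats, Zbtb16 in 27 and Mt2 in 20, and without Q5A ZT12 cohort 2 replicate 1 Sgk1 alone remained. Tsc22d3, with the smallest adjusted p among the members in the controls, was not called in Q5A. A cosine of 24 h fitted in edgeR called Sgk1, Tsc22d3, Mt1 and Mt2 in the controls (1338 genes, 7.41%) and Sgk1 in Q5A (44 genes, 0.244%), with a log2 amplitude for Sgk1 of 0.70 in controls and 1.39 in Q5A.

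No member passed a test of its level between viruses. Averaged over all ZT, Q5A minus controls was called at an adjusted p under 0.01 for 1 of 13891 genes (0.0072%) and H3.3 minus GFP also for 1 (0.0072%), neither of them a member. The largest values among the members were 0.21 ± 0.14 for Ddit4 in Q5A minus controls and -0.42 ± 0.24 for Sgk1 in H3.3 minus GFP. At single ZT no member was called either, and edgeR called between 0 and 9 genes (0.0648%) at each ZT for Q5A minus controls and none for H3.3 minus GFP, where between 393 and 4254 genes had an unadjusted p under 0.05 and DESeq2 called 355 over all ZT, no member among them. Sgk1 at ZT12 had a Q5A value above the controls by 0.89 ± 0.37 (edgeR adjusted p = 1.00). Tsc22d3 differed by 0.80 ± 0.38 at ZT4 (edgeR adjusted p = 0.469) and by -0.90 ± 0.39 at ZT20 (edgeR adjusted p = 0.450). Mt2 differed by 0.64 ± 0.29 at ZT4 (edgeR adjusted p = 0.467). Between the control viruses, Zbtb16 at ZT12 differed most, by -1.22 ± 0.58 (edgeR adjusted p = 0.135).

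Cohort 3 stood apart from cohort 1 in a large share of all genes, the metallothioneins among them. Mt1 had a mean normalised count of 33.9 ± 13.1 in cohort 1 (SD, n = 78), 42.3 ± 14.5 in cohort 2 (SD, n = 24) and 83.7 ± 46.2 in cohort 3 (SD, n = 8). For Mt2 the means were 13.1 ± 5.52, 15.3 ± 7.29 and 27.4 ± 8.82. With virus and ZT in the same edgeR fit, cohort 3 exceeded cohort 1 by 1.25 ± 0.19 for Mt1 (log2, SE, adjusted p = 5.72e-08) and by 0.95 ± 0.20 for Mt2 (adjusted p = 9.19e-05). Tsc22d3 was higher by 0.71 ± 0.27 (edgeR adjusted p = 0.0302), and these were the 3 of 8 tested members among 4731 called genes (34.1%), a share of members near that of all genes. Cohort 2 minus cohort 1 was called for 447 genes (3.22%) and no member. What sets cohort 3 apart is not given in the labels, and it held 5 H3.3 and 3 Q5A libraries. With cohort as a term, Sgk1, Tsc22d3 and Mt2 were again called in the controls, and Sgk1 in Q5A.

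**Figure D4:**
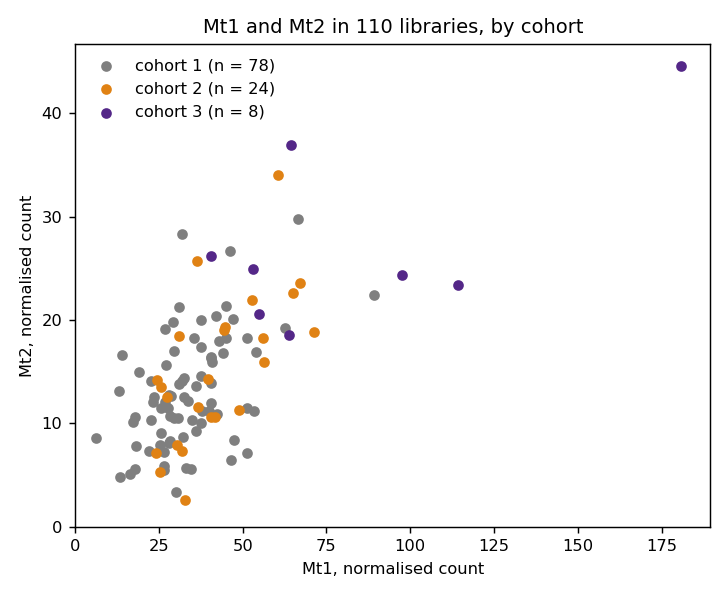
Normalised count of Mt2 (vertical axis) against that of Mt1 (horizontal axis), with 1 point for each of 110 libraries, coloured by cohort. The 8 libraries of cohort 3 lie between 40.5 and 181 for Mt1 and between 18.5 and 44.6 for Mt2.

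Some markers of cell types also differed between the phases. In the controls the histamine enzyme Hdc was higher at lights off by 1.82 ± 0.44 (edgeR adjusted p = 0.0187), as were 2 markers of striatal neurons, Penk by 0.91 ± 0.25 (edgeR adjusted p = 0.0319) and Ppp1r1b by 1.49 ± 0.43 (edgeR adjusted p = 0.0413). Those were 1 of 3 tested histamine and 2 of 2 tested striatal markers, and 0 of 4 neuronal, 5 astrocyte, 4 oligodendrocyte, 4 microglial, 4 endothelial and 1 pituitary markers passed. The summed striatal markers ran from 25.3 to 71.9 (median 39.4) in lights-on and from 11.4 to 646 (median 49.4) in lights-off controls. In 3 libraries, all of cohort 1, the sum stood apart: 569 (a GFP library at ZT12, replicate 3), 646 (an H3.3 library at ZT12, replicate 1) and 1009 (a Q5A library at ZT20, replicate 3). The control calls of Penk and Ppp1r1b include the GFP and H3.3 libraries of these, and were not tested without them. Without these 3 libraries, Sgk1 (1.17 ± 0.30, edgeR adjusted p = 0.0125), Tsc22d3 (1.17 ± 0.22, edgeR adjusted p = 0.00212) and Mt2 (0.80 ± 0.20, edgeR adjusted p = 0.0119) were called in the controls, and Mt1 as well (0.65 ± 0.19, edgeR adjusted p = 0.0258). Summed astrocyte markers had medians of 179 (93.4 to 366) and 209 (80.6 to 424), and summed oligodendrocyte markers of 1807 (584 to 2591) and 1122 (574 to 4005). In Q5A no marker passed the lights-off test, while the oligodendrocyte sum had medians of 1008 (504 to 3334) at lights on and 1899 (789 to 4938) at lights off. The pituitary hormones Cga, Prl and Gh were at 0 in at least 89 of 110 libraries. The part of cell makeup in the members' values was not tested.

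Few other genes on the hormone's list passed. Of 30 further glucocorticoid-induced genes 24 were tested, and Per1 alone was called in the controls (1.05 ± 0.19, edgeR adjusted p = 0.00150), a clock gene that glucocorticoids also induce. Klf15, a transcription factor, had 0.56 ± 0.18 (edgeR adjusted p = 0.0732) and Plin4, a lipid droplet protein, 0.54 ± 0.18 (edgeR adjusted p = 0.0792). In GFP alone Per1 and Sesn1 were called for the lights-off difference. The median of the list was 0.05 in the controls and 0.29 in Q5A, where none passed, beside 0.03 and 0.02 over all genes. JTK_CYCLE called 6 of 25 in the controls, beside 15.4% of all genes, with peaks at ZT6 for Cebpb, ZT20 for Galnt9, ZT16 for Klf15, ZT14 for Per1, ZT12 for Plin4 and ZT0 for Usp2. In Q5A it called 3, namely Dusp1, Plin4 and Txnip, beside 4.55% of all genes.

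Among 16 genes of the receptors and the hormone axis, 13 were tested and none had a lights-off difference in controls or Q5A. The receptor gene Nr3c1 had 0.50 ± 0.19 in the controls (edgeR adjusted p = 0.111). Between viruses, Pomc was called higher in Q5A than in the controls at ZT16, 1 of 2 genes at an edgeR adjusted p under 0.01. Normalised counts of Pomc ran from 0 to 373 with a median of 3.46 over 110 libraries. JTK_CYCLE called 5 of the 16 in the controls (15.4% of all genes). They were the receptor's chaperone Hsp90ab1 and Hsd11b1, which regenerates active hormone (both with peaks at ZT18), Fkbp4 (ZT16), Crhbp (ZT12) and Ncor1 (ZT0). Hsd11b1 was at 0 in 39 of 110 libraries. In Q5A (4.55% of all genes) JTK_CYCLE called Hsp90ab1 and Pomc. Of 7 other metal response genes, 4 were tested for the lights-off difference and none passed. Mt3, the brain metallothionein, had 0.39 ± 0.15 in the controls (edgeR adjusted p = 0.108). JTK_CYCLE called 3 of 6 metal response genes in the controls, beside 15.4% of all genes. They were Mt3 (JTK_CYCLE adjusted p = 0.00510, peak at ZT18), Mtf1 (0.0341, peak at ZT8) and Slc39a14 (0.0497, peak at ZT4). Of 10 p53, hypoxia and mTORC1 genes, Vegfa alone passed and was lower at lights off, by -0.36 ± 0.09 (edgeR adjusted p = 0.0214), and 0 of 6 tested genes of the NF-kappaB pathway passed.

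Across the 110 libraries, over the 28 pairs of tested members the Pearson correlation of log2(normalised count + 1) ran from -0.03 to 0.56 with a median of 0.25, and was highest for Mt1 with Mt2 (0.56) and Sgk1 with Tsc22d3 (0.51). Among the genes most like the mean standardised pattern of the 8 members were Eef2 (0.74), Tmsb4x (0.73), Sepp1 (0.72) and Syt11 (0.71), where the median over all other genes was 0.08. All libraries enter these values, so they share virus, ZT, cohort and depth. The members' mean pattern also had a correlation of 0.60 with the share of uniquely placed reads in gene rows, whose medians were 3.87% at lights on and 4.07% at lights off in the controls and 3.92% and 3.99% in Q5A. That share was 5.39% in the highest Sgk1 library and 5.63% in the highest Tsc22d3 library, GFP ZT12 cohort 2 replicate 1. With all uniquely placed reads as library size, the same 3 members were called in the controls and Sgk1 in Q5A. Such a library size leaves that share in the values, so the part of the share in the calls was not tested.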

How the data were processed

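RNA-seq of TMN punches was analysed from 111 libraries mapped to virus, ZT, cohort and replicate through the labels. Replicates 2 and 3 of cohort 2 in Q5A at ZT4 held identical counts and were counted as 1 sample, which left 110 libraries. A further 18 files tied to no sample here were not analysed here. Per the labels and methods, the authors aligned reads of a stranded mRNA kit to GRCm38 with STAR 2.7.11b and, with HTSeq 2.0.5, summed exon reads by gene name on the gene's own strand. The deposited values are raw counts, and 5 rows of no gene were left out of totals. Gene rows held 3.49% to 5.63% of uniquely placed reads. Intervals on counts cover counting error only.

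Normalised counts are reads divided by DESeq2 median-of-ratios size factors. Lights-off and virus contrasts came from 1 edgeR 4.0.16 quasi-likelihood fit (R 4.3.3) of 18 groups with TMM scaling and filterByExpr (minimum count 10, total 15), log2 values without a prior count and SE as the log2 value over the root of F, with Benjamini-Hochberg adjustment over 13891 genes at 0.05 (lights-off) or 0.01 (virus). Rhythms were called with a reimplementation of JTK_CYCLE (Python 3.11.15, numpy 2.4.6) over 18066 genes with a mean normalised count of at least 1, against 20 templates of 8 to 24 h, at a template-adjusted p under 0.05. Intervals of 95% on differences are the normal quantile times the SE. The calculations were tested on simulated counts first. Alternatives were DESeq2 1.42.0, DESeq2 size factors in edgeR, no filter, another library size, cohort as covariate or cohort 1 alone, a replicate block, and leaving out replicates. In the fits that left out single libraries, the spread was that of the full fit.

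The text names all 9 members. Of the other lists it names some, not all, of the genes that passed a test, with at most the 3 of smallest p in the controls. Named too are genes with the highest correlation with the members' mean pattern. Members, lists and marker genes were chosen with earlier results of these data known. Single-virus contrasts and the sets without named libraries were chosen after seeing the data. One gene that the likeness rule selects is not reported here.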

Additional observations from a re-analysis of the deposited data

Results flagged for a closer look

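In 13 of 162 groups of virus, ZT and gene, 1 library lay far from the others by Dixon's criterion, in 13 different libraries. For normally distributed values chance alone marks about 1 in 20 groups. Rows of few reads, as here, need not follow that rate. For Mt1, the H3.3 libraries of cohort 3 held the highest value at ZT8 (114, the next 44.8) and at ZT16 (181, the next 65.1), and a GFP library of cohort 2 that at ZT16 (67.2, the next 47.4). Mt2 was highest in 1 Q5A library at ZT0 (16.6, the next 12.5) and in 1 of cohort 3 at ZT4 (36.9, the next 18.9). For Sgk1, 1 GFP library at ZT0 had 9.81 where the next had 2.94. Ddit4 stood high in 1 H3.3 library at ZT0 (15.8, the next 7.22) and in 1 at ZT12 (16.5, the next 8.14), and low in 1 Q5A library at ZT4 (3.86, the next 9.29). Cdkn1a, with few reads, stood high in single libraries of Q5A at ZT0 (3.01), H3.3 at ZT4 (5.09), GFP at ZT16 (11.97) and GFP at ZT20 (7.29).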

How the results depend on the processing

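Of 155 recomputed counts of members called, 126 stayed within 1.5 times the reported count. Of 454 recomputed values of single members, 426 kept their direction and side of the threshold, 15 lost the call, 4 gained it and 9 turned sign. DESeq2 gave no adjusted p for 4 of the values, the lights-off difference of Sgk1 in the controls among them (log2 1.09).

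For the lights-off difference in the controls (3 members), ZT12 minus ZT0 alone called 0, cohort 1 alone 1 and H3.3 alone 0, and leaving out replicates gave 0 to 4. In Q5A (1 member) leaving out replicates gave 0 to 1. Rhythm calls in the controls (5 members) fell to 1 with adjustment over all genes and with cohort 1 alone, and to between 1 and 4 without single replicates. In GFP (2 members) they were 5 with a 24 h period alone, 0 with adjustment over all genes, 1 by the 24 h cosinor, 1 without the cohort 2 libraries of GFP and Q5A at ZT12, and 0 to 4 without single replicates. In H3.3 (0 members) cohort 1 alone gave 1, Mt1. In Q5A (3 members) they were 0 with adjustment over all genes, 1 with cohort 1 alone, 1 without those cohort 2 libraries, 1 by the cosinor, and 1 to 3 without single replicates. The cause was not tested.

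With the replicate number as a block, the lights-off difference called 3 members in the controls, 1 in Q5A and 0 in their difference, and levels 0. The cosinor with this block called 0 in GFP and 1 in Q5A, and the Ddit4 difference in Q5A turned to -0.0053. Equal numbers did not pair libraries, since over 91 same-numbered pairs the deviations had a median correlation of 0.03 and a lowest of -0.29, and 30 of 94 libraries were most like their own number.

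Other turned signs were Ddit4 in the controls with cohort 1 alone (-0.012), and, for Q5A minus controls, Fkbp5 with ZT12 minus ZT0 alone (-0.19) and without replicates 2 and 4 (without single replicates it ran from -0.12 to 0.20), Tsc22d3 (0.041) and Mt1 (0.067) with ZT12 minus ZT0 alone, and Ddit4 (0.059) and Mt1 (0.48) with cohort 1 alone. No filter gave 617 genes with a lights-off difference in the controls in place of 349, only the groups compared 81, and leaving out replicates 11 to 448, and in Q5A cohort 1 alone gave 463 in place of 1. Contrasts that weigh all 18 groups had no fit of only the groups compared. Rows of few reads limit all members but Mt1, with Mt2 (median 12 reads) among those limited.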
